A study of Bos grunniens with 9 samples.

Results

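Genes of antibody-making cells were followed in ribosome footprints of yak ovary, under 9 symbols: IGHV4-39, IGLV2-14, JCHAIN, MZB1, CD79A, CD79B, POU2AF1, PRDM1 and IRF4. They were chosen by their footprint levels in these same libraries, which an earlier look had found lower in estrus than in anestrus ovaries, and every identifier of a symbol was kept, which gave 15 of the 21652 genes in the tables. IGHV4-39 stood at 5 identifiers, IGLV2-14 at 2 and IRF4 at 2, and the last 5 digits of the cattle Ensembl identifier tell such rows apart here. Ribosome profiling sequences the pieces of mRNA that ribosomes shield from RNase, so a footprint count reflects mRNA amount and translation together.

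The ovaries came from 6-year-old yaks (Bos grunniens) killed in April (anestrus), August (estrus) or December (pregnancy), and the ipsilateral ovary was taken. Each stage has 3 biological replicates, which makes 9 libraries. A stage was collected in 1 month only, so stage and season cannot be told apart. The labels mention 3 yaks over the stages and do not say whether the replicates of a stage came from separate animals, so every SD, standard error and p-value here measures the spread among libraries, which may be technical. Libraries held 1.47 to 28.94 M counts (M, 1e6), and after scaling 3 counts were worth 1.79 CPM (counts per 1e6) in the shallowest library (pregnancy replicate 3) and 0.119 CPM in the deepest (anestrus replicate 2). These libraries stood apart from the rest: the mean correlation with the other 8 libraries over 13936 genes was 0.876 for pregnancy replicate 3 and 0.904 for anestrus replicate 2, against 0.919 to 0.937 for the others. All 18 ovarian defining markers had footprints, with summed levels of 36200 to 60090 CPM in anestrus, 47310 to 59060 CPM in estrus and 27950 to 45580 CPM in pregnancy libraries.

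B cells carry an antibody in their membrane as the B cell receptor, and plasma cells, which arise from them, secrete antibody in bulk. An antibody joins heavy and light chains, each with a variable part that binds antigen and a constant part that sets its class. In plasma cells PRDM1 and IRF4 drive the secretory programme, MZB1 assists folding in the endoplasmic reticulum, and JCHAIN links antibody units into polymers. Cattle antibodies use mostly lambda light chains. In whole ovary, fewer cells of a type and less RNA per cell cannot be told apart.

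Of the 15 rows, 14 had enough counts to be tested. The remaining one, IGHV4-39 (51010), had 14 counts in pregnancy replicate 2 and 0 in the other 8 libraries. Levels below are CPM scaled with TMM factors, which compare one gene between libraries. Levels of different genes are compared as FPKM, the deposited values per length.

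The variable segments made up most of these footprints. IGHV4-39 (48268) averaged 726 ± 286 FPKM in anestrus, 339 ± 226 FPKM in estrus and 927 ± 436 FPKM in pregnancy libraries (SD, n = 3 each). Of the symbols at 1 identifier JCHAIN was highest, with 204 ± 78 FPKM in anestrus, 97.9 ± 86.8 FPKM in estrus and 207 ± 175 FPKM in pregnancy libraries. The membrane and nuclear genes lay far lower: over the 9 libraries the mean was 8.42 FPKM for CD79A, 6.20 FPKM for PRDM1, 2.28 FPKM for POU2AF1 and 1.96 FPKM for CD79B.

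The heavy chain variable segment rows came first. IGHV4-39 (48268) had 541, 259 and 391 CPM in anestrus, 240.3, 267 and 42.8 CPM in estrus, and 492, 257 and 628 CPM in pregnancy replicates 1 to 3. Estrus replicate 3 was the lowest of the 9 libraries, while estrus replicate 2 lay above anestrus replicate 2 and pregnancy replicate 2. IGHV4-39 (50088) had 349.6, 236 and 289 CPM in anestrus, 178, 174 and 35.4 CPM in estrus, and 204, 171 and 385 CPM in pregnancy libraries. Here every estrus library was below every anestrus library, and the pregnancy libraries spanned both. At IGHV4-39 (48048) the libraries held 71.4, 33.1 and 55.5 CPM in anestrus, 13.0, 10.8 and 18.6 CPM in estrus, and 48.9, 33.9 and 67.4 CPM in pregnancy. That row separated estrus from both other stages with no overlap. IGHV4-39 (46161) was faint, with 3.97, 1.19 and 2.02 CPM in anestrus, 0.94, 3.78 and 0 CPM in estrus, and 1.38, 0 and 9.54 CPM in pregnancy, and its stages overlapped throughout. The files describe these rows as bovine heavy variable 4-38-2 or 4-59 or as an uncharacterised buffalo protein, so the symbol stands for a group of similar segments whose reads may be split between rows by the counting.

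Among light chain segments, IGLV2-14 (54090), a lambda variable segment, had 95.2, 49.8 and 66.3 CPM in anestrus, 5.48, 21.5 and 5.73 CPM in estrus, and 100.1, 16.7 and 71.0 CPM in pregnancy libraries. All 3 estrus libraries lay below the anestrus libraries, and pregnancy replicate 2 lay within the estrus range. IGLV2-14 (49563) had 60, 73 and 94 counts in anestrus, 0, 1 and 1 counts in estrus, and 32, 4 and 5 counts in pregnancy libraries. The row was thus nearly empty in estrus. Its summed estrus over anestrus ratio per effective library size was 0.0205 (2 against 227 counts, 95% exact binomial interval 0.00247 to 0.0751), and its pregnancy over estrus ratio was 29 (41 against 2 counts, interval 7.53 to 247). These intervals cover counting error only and leave out the spread between libraries. They are no test, since the estrus and anestrus levels had entered the choice of the genes.

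JCHAIN, the joining chain of polymeric antibodies, had 133, 65.6 and 116 CPM in anestrus, 91.0, 47.5 and 8.43 CPM in estrus, and 54.5, 50.6 and 180.1 CPM in pregnancy libraries. Its stages overlapped, with estrus replicate 3 lowest and pregnancy replicate 3 highest of all 9. MZB1, the endoplasmic reticulum cochaperone, had 57.8, 25.7 and 34.8 CPM in anestrus, 14.7, 12.3 and 2.53 CPM in estrus, and 21.8, 21.7 and 26.8 CPM in pregnancy libraries. The estrus libraries of MZB1 were below all others, and the pregnancy replicates lay close together.

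CD79A and CD79B are the signalling chains of the B cell receptor, and they differed from one another. CD79A had 7.08, 4.11 and 5.97 CPM in anestrus, 8.45, 5.13 and 1.85 CPM in estrus, and 8.60, 3.25 and 7.75 CPM in pregnancy libraries, so its stages overlapped fully. CD79B had 3.51, 2.09 and 1.93 CPM in anestrus, 0.94, 1.36 and 0.34 CPM in estrus, and 2.33, 0.41 and 0 CPM in pregnancy libraries. Its estrus libraries lay below its anestrus libraries, on 6, 14 and 2 counts. The 0 of pregnancy replicate 3 allows a level of up to 1.79 CPM, for counting error only.

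The transcription regulators fell into different patterns. POU2AF1, a coactivator needed for germinal centres in mice, had 46, 62 and 61 counts in anestrus, 0, 2 and 0 counts in estrus, and 21, 5 and 4 counts in pregnancy libraries. In CPM these were 3.04, 2.45 and 4.92 in anestrus, 0, 0.19 and 0 in estrus, and 2.23, 1.02 and 2.38 in pregnancy, with no overlap between any pair of stages, although the highest pregnancy value lay just under the lowest anestrus value. The summed ratio of POU2AF1 was 0.0276 for estrus over anestrus (2 against 169 counts, 95% exact binomial interval 0.00332 to 0.101) and 21.2 for pregnancy over estrus (30 against 2 counts, interval 5.38 to 183). These intervals too cover counting error only and leave out the spread between libraries. The estrus and anestrus levels had entered the choice of the gene, so the intervals are no test. PRDM1, which is also expressed in other cell types, had 12.5, 28.5 and 21.7 CPM in anestrus, 12.2, 10.3 and 17.4 CPM in estrus, and 11.5, 10.6 and 16.7 CPM in pregnancy libraries. Anestrus replicate 2, the deepest library, was highest for PRDM1, and anestrus replicate 1 lay among the estrus libraries. IRF4 (02929) had 6.02, 2.57 and 9.67 CPM in anestrus, 2.66, 2.13 and 1.69 CPM in estrus, and 3.71, 2.23 and 8.94 CPM in pregnancy libraries, with narrow overlap between estrus and the other stages. The other row, IRF4 (31214), is described in the files as IRF4-like and had 4.04, 2.13 and 6.53 CPM in anestrus, 3.91, 3.29 and 9.78 CPM in estrus, and 3.93, 5.08 and 7.75 CPM in pregnancy libraries. In that row estrus replicate 3 was the highest of all libraries, which set it apart from the antibody genes.

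**Figure D1:**
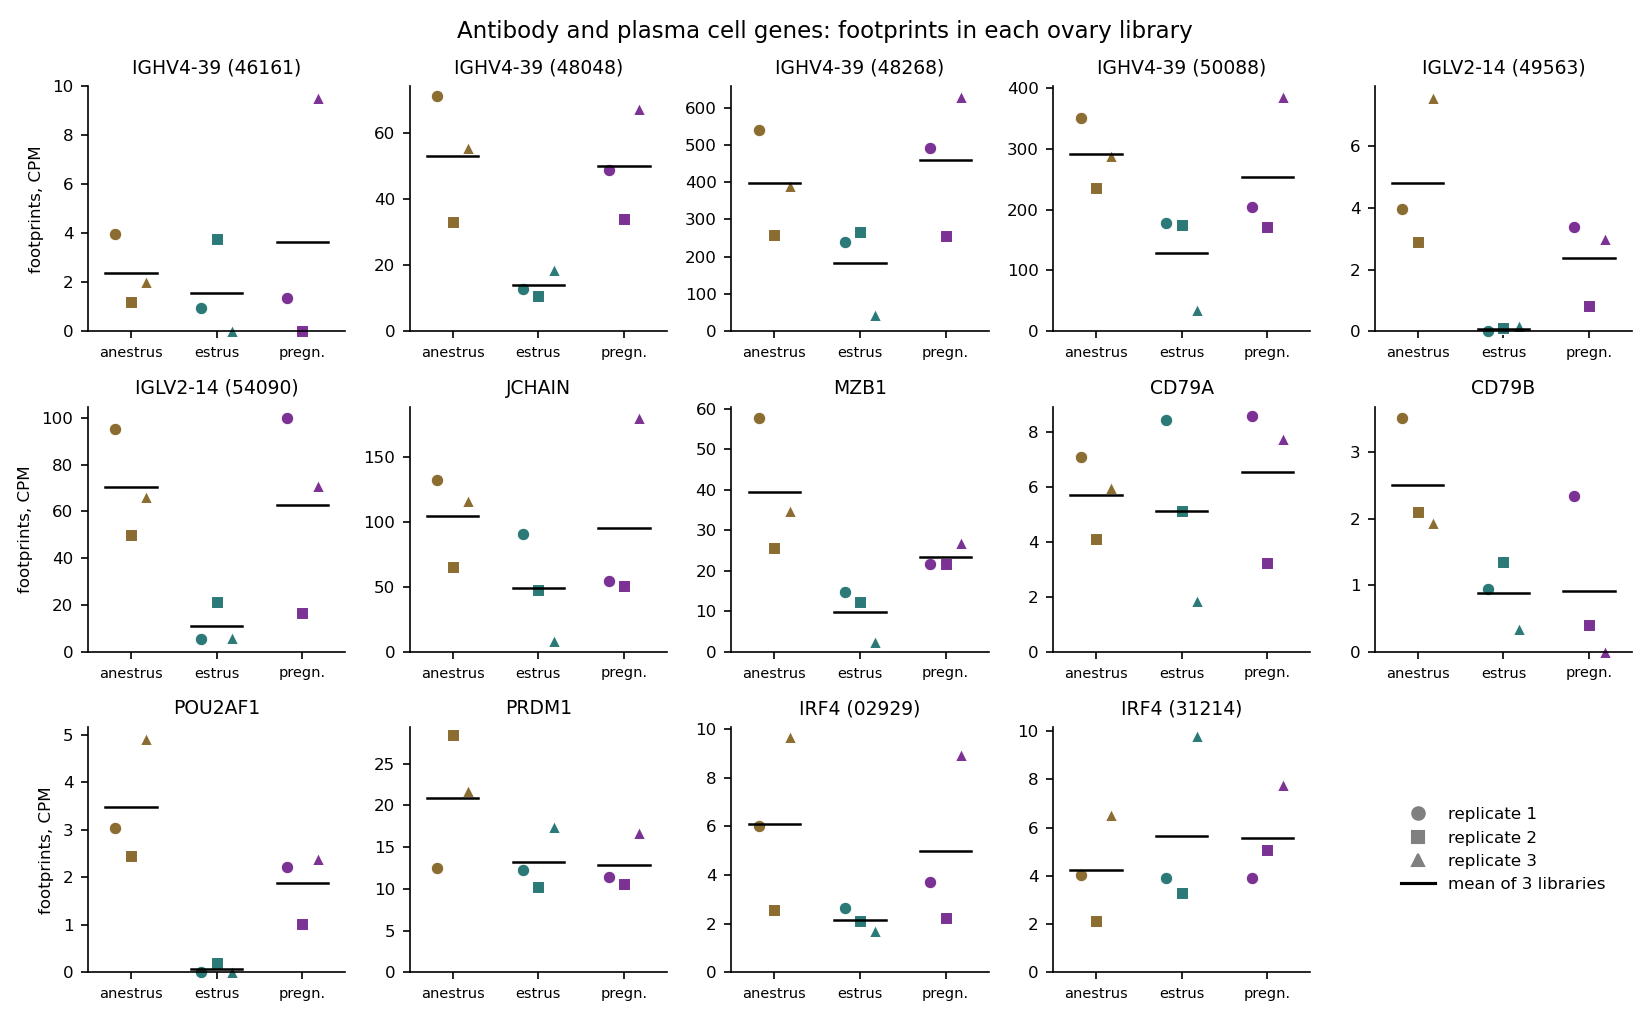
Footprint level in CPM (linear axes from 0) of the 14 tested rows in each of the 9 libraries, by stage; symbols mark the replicate, black bars the mean of 3 libraries, and bracketed digits end the identifier. In 7 panels every estrus library lies below every anestrus library, against 6.42% of all genes. Estrus replicate 3 is the lowest library in IGHV4-39 (48268), IGHV4-39 (50088), JCHAIN, MZB1, CD79A and IRF4 (02929). It shares the lowest value, 0, in IGHV4-39 (46161) and POU2AF1.

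Estrus was then set against anestrus across the 14 tested rows. This contrast chose the genes, so it is described without a test. The fitted log2 fold change of estrus over anestrus was negative in 13 of 14 rows, against 50.8% of all 13936 genes tested. Its median was -1.32 over the 14 rows and -0.01 over all genes. Every estrus library was below every anestrus library in 7 of 14 rows, against 6.42% of all genes. These 7 were IGHV4-39 (48048), IGHV4-39 (50088), both IGLV2-14 rows, MZB1, CD79B and POU2AF1. The log2 fold change was -5.58 (SE 0.89) at IGLV2-14 (49563), -5.17 (SE 0.88) at POU2AF1, -2.66 (SE 0.67) at IGLV2-14 (54090), -1.99 (SE 0.51) at MZB1 and -1.92 (SE 0.35) at IGHV4-39 (48048). It was smaller than its error or close to it at CD79A, with -0.14 (SE 0.53), and at IGHV4-39 (46161), with -0.52 (SE 1.27). IRF4 (31214) was the 1 row with a positive value, 0.42 (SE 0.54), and it turned to -0.10 with limma-voom, to -0.32 with library size as a covariate and to -0.23 without estrus replicate 3. CD79A turned to 0.24 and IGHV4-39 (46161) to 0.02 without that library, and to 0.04 and 0.06 without anestrus replicate 1. Over all genes, 0.0% passed an adjusted p of 0.05 in this contrast with edgeR's quasi-likelihood test and Benjamini-Hochberg adjustment, and 7.04% had an unadjusted p under 0.05. Left out, estrus replicate 3 moved the median of the 14 rows to -1.0.

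Pregnancy was next compared with estrus. The estrus libraries had entered the choice of the genes, so the counts are given as a description and support nothing on their own. The log2 fold change of pregnancy over estrus was positive in 12 of 14 rows, against 50.6% of all genes, with a median of 1.02 over the rows and 0.01 over all genes. Some of these 12 passed the count filter only with the anestrus libraries included, as named below. With the 6 libraries of pregnancy and estrus fitted alone, 10 rows passed it. Of these, 8 were positive and 2 negative, with a median of 1.03. Every pregnancy library was above every estrus library in 4 of 14 rows, against 7.05% of all genes: IGHV4-39 (48048), IGLV2-14 (49563), MZB1 and POU2AF1. The fitted value was 1.82 (SE 0.35) at IGHV4-39 (48048), 2.49 (SE 0.67) at IGLV2-14 (54090) and 1.23 (SE 0.52) at MZB1. No row passed an adjusted p of 0.05 in edgeR (0 of 14, against 0.0% of all genes), and the smallest adjusted p of the rows was 0.522. At an unadjusted p under 0.05 there were 6 of 14 rows, against 7.43% of all genes. POU2AF1 and IGLV2-14 (49563) were among these 6 and among the 4 above. Both passed the count filter only with the anestrus libraries included, where they were high, so they lend these counts no support. CD79B and IGHV4-39 (46161) also passed the filter only with the anestrus libraries included. All of these rows were among the 12 positive ones, so they lend that count and its median no support. DESeq2 called 2 of the rows at an adjusted p of 0.05, IGHV4-39 (48048) and IGLV2-14 (54090), against 0.193% of the genes to which it gave an adjusted p. In the authors' deposited table the same rows had FDRs of 0.00392 and 0.0487, and 0.106% of all genes were under 0.05. PRDM1 and IRF4 (31214) had values of -0.07 (SE 0.35) and -0.07 (SE 0.56), and both turned positive when scaled by library size alone. That scaling moved the median of all genes to 0.10. Without pregnancy replicate 3 the median of the 14 rows was 0.60, and without estrus replicate 3 it was 0.68.

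For pregnancy against anestrus, the anestrus libraries had likewise entered the choice. The log2 fold change of pregnancy over anestrus was negative in 10 of 14 rows, against 49.9% of all genes, with a median of -0.19 over the rows and 0.00 over all genes. Every pregnancy library was below every anestrus library in 1 of 14 rows, POU2AF1, against 6.91% of all genes. No row passed an adjusted p of 0.05 in edgeR (0 of 14, against 0.0% of all genes), the smallest adjusted p of the rows was 0.718, and 0 of 14 had an unadjusted p under 0.05, against 6.82% of all genes. DESeq2 called 0 of them too, against 0.171% of its genes, and 0 of them had an FDR under 0.05 in the authors' deposited table, against 0.166% of all genes. Values lay between -1.11 (SE 0.82) at CD79B and 0.35 (SE 0.56) at IRF4 (31214), and PRDM1 stood at -0.73 (SE 0.35). IGHV4-39 (48048) was at -0.10 (SE 0.34) and turned to 0.03 when scaled by library size alone, which moved the median of all genes to 0.13. Single libraries moved these values. The median of the rows was -0.82 without pregnancy replicate 3, 0.06 without pregnancy replicate 2, -0.01 without anestrus replicate 1 and -0.39 without anestrus replicate 2. Without both libraries that stood apart it was -0.84, and 14 of 14 rows were negative.

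**Figure D2:**
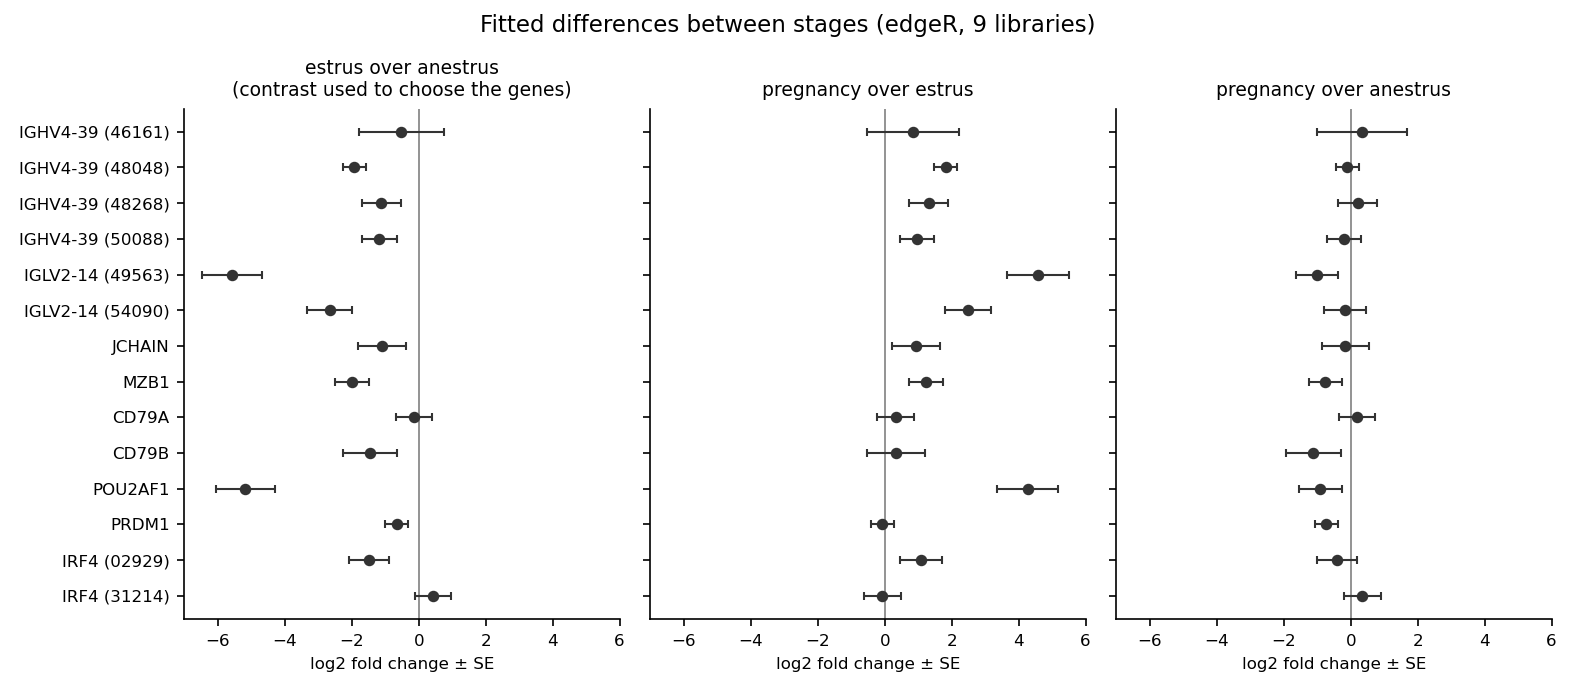
Fitted log2 fold change with its standard error (edgeR, all 9 libraries) of the 14 tested rows in the 3 comparisons of stages. Estrus over anestrus values are negative in 13 rows, pregnancy over estrus values are positive in 12, and pregnancy over anestrus values lie between -1.11 and 0.35.

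The other immunoglobulin rows of the tables, outside the 9 symbols, were read beside IGHV4-39 and IGLV2-14. There were 56 rows with an immunoglobulin segment symbol, of which 42 had counts and 35 of those were not among the 9 symbols. Together the 56 rows took 1.55, 0.505 and 1.03% of the counts in anestrus, 0.568, 0.510 and 0.0952% in estrus, and 0.930, 0.635 and 1.25% in pregnancy libraries. In these shares anestrus replicate 2 lay just below estrus replicates 1 and 2. With TMM factors the rows summed to 15840, 5774 and 10000 CPM in anestrus, 5428, 5466 and 976 CPM in estrus, and 8952, 6408 and 10970 CPM in pregnancy libraries. On that scale every estrus library was below every anestrus library, with anestrus replicate 2 close to estrus replicates 1 and 2, so the separation of these stages depends on the scaling. The log2 ratio of the mean TMM-scaled CPM of estrus over anestrus was -1.41, and it was -0.95 without estrus replicate 3 and -1.0 without anestrus replicate 1. Of the 26 tested rows outside the 9 symbols, 24 had a negative estrus over anestrus log2 fold change, against 50.8% of all genes, with a median of -1.05. In 5 of the 26 every estrus library was below every anestrus library, against 6.42% of all genes. For pregnancy over estrus 16 of 26 were positive, against 50.6% of all genes, with a median of 0.48. For pregnancy over anestrus 19 of 26 were negative, against 49.9% of all genes, with a median of -0.61. None of the 26 passed an adjusted p of 0.05 in edgeR in any of the 3 comparisons. Taken in that order, 6, 4 and 4 had an unadjusted p under 0.05, against 7.04, 7.43 and 6.82% of all genes. Reads may be split between similar segments, so these rows may not be independent of one another.

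IGHG2, the constant part of a gamma heavy chain (IgG), had the most counts. Its row with most counts averaged 6039 ± 3435 CPM in anestrus, 2022 ± 1301 CPM in estrus and 4119 ± 968 CPM in pregnancy libraries (SD, n = 3 each). A second IGHG2 row, described as IgG3, averaged 737 ± 383 CPM in anestrus, 195 ± 161 CPM in estrus and 959.7 ± 593 CPM in pregnancy libraries. Lambda segment IGLV1-40 held 4 of the 10 rows with most counts. The largest of these averaged 708 ± 381 CPM in anestrus, 337 ± 253 CPM in estrus and 941 ± 386 CPM in pregnancy libraries. IGHM, the constant part of the mu heavy chain (IgM), had another order of stages, with 231 ± 39.8 CPM in anestrus, 141 ± 78 CPM in estrus and 79.9 ± 47.6 CPM in pregnancy libraries. Its log2 fold change of pregnancy over anestrus was -1.51. Ighv3-6, a further heavy variable row, averaged 187 ± 183 CPM in estrus and 136 ± 40.7 CPM in anestrus libraries, with an estrus over anestrus log2 fold change of 0.46.

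Class make-up was then read from the constant parts, grouped after their values were seen and given without a test. The gamma rows here include Igh-1a, described in the files as a gamma heavy chain and not among the 56 rows. Gamma rows took 91.9 to 99.7% of the heavy constant counts in every library. Mu rows took 1.96, 4.40 and 2.10% in anestrus, 4.55, 3.92 and 7.83% in estrus, and 1.29, 2.00 and 0.234% in pregnancy libraries. Estrus replicate 3, the library with the least immunoglobulin, had the highest mu share (408 of 5212 counts, 95% exact binomial interval 7.11 to 8.59%), and pregnancy replicate 3 the lowest (43 of 18414 counts, interval 0.169 to 0.314%). Reads without molecular identifiers are not independent molecules, and these intervals cover counting error only. The pregnancy libraries lay below the estrus libraries without overlap. Kappa segments took 3.87, 2.52 and 6.23% of light variable counts in anestrus, 6.46, 1.13 and 9.89% in estrus, and 3.30, 2.76 and 0.499% in pregnancy libraries, with overlap between all stages. IGHV4-39 took 53.3 to 81.3% of heavy variable counts, and its lowest shares were 53.3% in estrus replicate 2 and 56.1% in pregnancy replicate 1. IGLV2-14 took 2.97, 4.07 and 2.97% of lambda variable counts in anestrus, 0.408, 1.59 and 3.17% in estrus, and 3.34, 1.18 and 2.70% in pregnancy libraries. Per 100 mu counts JCHAIN had 12.3 to 53.7 counts in 8 libraries and 702 in pregnancy replicate 3, which held 43 mu counts. The alpha class rests on an IGHA2 row that the files describe as an IgM precursor, so its class is unclear and its share is not given.

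**Figure D3:**
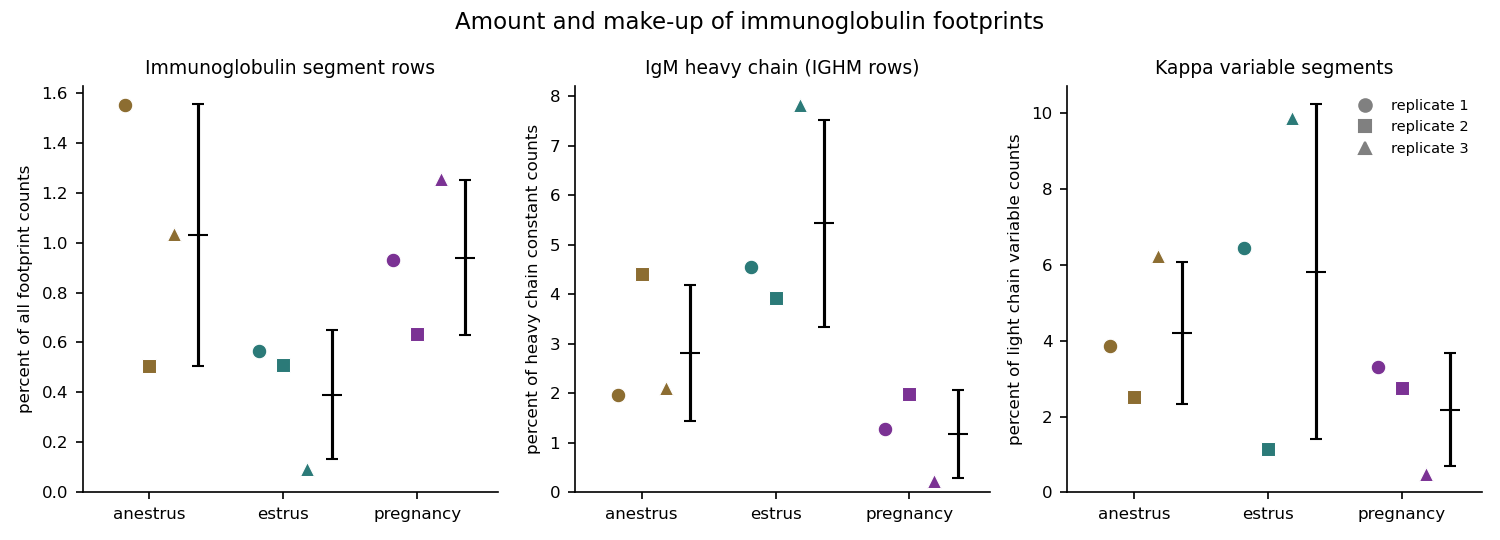
Share of all counts on the 56 immunoglobulin segment rows, share of mu among heavy constant counts and share of kappa among light variable counts, in percent, for each library by stage; black marks give the mean and SD of 3 libraries. Estrus replicate 3 has 0.0952% of its counts on the 56 rows and the highest mu share, 7.83%. The heavy constant counts include Igh-1a, which is not among the 56 rows.

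Other genes of the B and plasma cell lineage were taken as a list of 39, of which 24 were tested. In estrus against anestrus 17 of 24 had a negative log2 fold change, against 50.8% of all genes, with a median of -0.33. An unadjusted p under 0.05 in edgeR was reached by 5 of 24, all lower in estrus, against 7.04% of all genes in either direction. None passed an adjusted p of 0.05 in edgeR in any of the 3 comparisons. FCER2, the low-affinity IgE receptor CD23 of B cells, had 5.95, 4.94 and 9.27 CPM in estrus libraries against 19.2, 13.5 and 9.27 CPM in anestrus libraries, with an adjusted p of 0.704 in edgeR. DERL3, a protein of degradation at the endoplasmic reticulum, had 3.91, 1.65 and 0.675 CPM in estrus against 7.88, 4.19 and 6.77 CPM in anestrus libraries. XBP1, the transcription factor of the secretory programme, had 112, 105 and 115 CPM in estrus against 129, 224 and 156 CPM in anestrus libraries. It is also among the secretory pathway genes below, so it is not particular to this lineage. BACH2, a repressor of the plasma cell fate, had 1.41, 2.71 and 1.01 CPM in estrus against 3.18, 8.54 and 2.98 CPM in anestrus libraries. DERL3, XBP1 and BACH2 thus did not overlap between these stages, and FCER2 met at its edge. These genes were named for having the smallest unadjusted p of the list over the 3 comparisons, so a difference was expected of them. In all, every estrus library was below every anestrus library in 5 of 24 list genes, against 6.42% of all genes, and above in 2 of 24, against 5.22% of all genes. The other genes below were FCRLA and SLAMF7, which, like the 2 above, were also picked by their values. FCRLA had 0.783, 0.581 and 0.169 CPM in estrus against 1.39, 2.02 and 2.34 CPM in anestrus libraries. It passed the count filter through the anestrus libraries, where it was high, so it lends the counts of lower genes no support. IKZF1 and IKZF3, transcription factors of lymphocytes, were the genes above. IKZF1 had 6.89, 6.10 and 6.91 CPM in estrus against 5.69, 5.37 and 5.81 CPM in anestrus libraries. IKZF3 had 8.61, 9.39 and 10.1 CPM in estrus against 6.29, 3.28 and 7.58 CPM in anestrus libraries. In pregnancy against estrus 14 of 24 list genes were positive, with a median of 0.14. An unadjusted p under 0.05 was reached by 3 of 24, all higher, against 7.43% of all genes in either direction. DERL3 was among them, with 6.15, 5.08 and 4.77 CPM in pregnancy libraries. In pregnancy against anestrus 15 of 24 were negative, with a median of -0.29. VPREB1, the surrogate light chain of B cell precursors, was at 0 in all 9 libraries.

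The secretory pathway of the endoplasmic reticulum is used by every secreting cell of the ovary. Its 31 genes had a median log2 fold change of -0.14 in estrus over anestrus, -0.08 in pregnancy over estrus and -0.14 in pregnancy over anestrus. SDF2L1, a chaperone partner, had 4.07, 3.58 and 7.42 CPM in estrus against 10.7, 17.4 and 7.90 CPM in anestrus libraries, with an adjusted p of 0.704 in edgeR. Homing and survival factors of plasma cells, with 12 of 21 genes tested, had a median of -0.08 in estrus over anestrus. Among them CXCL12, a chemokine that holds plasma cells in their niche, had 189, 451 and 338 CPM in pregnancy, against 740, 357 and 646 CPM in anestrus libraries. ITGA4, an integrin chain of leukocyte homing, had 153, 72.7 and 36.1 CPM in estrus against 45.7, 25.5 and 37.0 CPM in anestrus libraries. PIGR, the epithelial receptor that carries polymeric antibody across cells, had 1.06, 1.02 and 1.19 CPM in pregnancy, against 3.05, 9.44 and 2.26 CPM in anestrus libraries, and the adjusted p was 0.718 in edgeR.

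Markers of other cells were read beside the antibody genes. T cell markers, with 20 of 24 tested and none at 0, summed to 97.5 to 135 CPM in anestrus, 102 to 118 CPM in estrus and 64.2 to 196 CPM in pregnancy libraries. Their median log2 fold change was -0.16 in estrus over anestrus, with 0 of 20 at an unadjusted p under 0.05, against 7.04% of all genes. Pan-leukocyte markers summed to 426 to 539 CPM in estrus and 458 to 543 CPM in anestrus libraries, with a median of -0.10. NK and cytotoxic markers had a median of -0.27 and macrophage markers one of 0.13 in the same contrast. Endothelial markers had a median of -0.24, and receptors and transporters of antibody one of 0.06. Neutrophil and mast cell markers, with 6 of 10 tested, had a median of -0.48, with 4 of 6 negative. They summed to 26.1 to 31.7 CPM in estrus and 25.5 to 62.8 CPM in anestrus libraries. Red blood cell markers, with 2 of 7 tested and SLC4A1 at 0, had a median of 1.38, with both positive. They summed to 5.17 to 20.3 CPM in estrus and 4.11 to 6.93 CPM in anestrus libraries. HBB, the beta chain of haemoglobin, had 1.88, 10.8 and 2.36 CPM in estrus against 1.72, 0.474 and 0.564 CPM in anestrus libraries. Ovarian defining markers, with 16 of 18 tested, had a median of 0.49, with 13 of 16 positive. Oviduct and surface epithelium markers, with 14 of 17 tested, had a median of -0.34, and 9 of 14 were negative. They summed to 233 to 813 CPM in estrus and 308 to 426 CPM in anestrus libraries. An unadjusted p under 0.05 in edgeR was reached by 4 of 14, of which 3 were lower in estrus, against 7.04% of all genes. OVGP1, a secreted oviduct glycoprotein, had 53.8, 77.7 and 18.4 CPM in anestrus, 5.17, 0 and 1.52 CPM in estrus, and 3.08, 6.70 and 5.96 CPM in pregnancy libraries. CAPS, expressed in ciliated cells, had 0.470, 0 and 0.675 CPM in estrus against 8.01, 5.61 and 0.564 CPM in anestrus libraries. TPPP3 had 14.25, 15.4 and 9.78 CPM in estrus against 20.5, 21.2 and 20.3 CPM in anestrus libraries. KRT8 had 111, 282 and 96.8 CPM in estrus against 120, 82.55 and 118 CPM in anestrus libraries, with a positive log2 fold change of 0.62. Of the 14 tested, 5 were positive. OVGP1, CAPS, TPPP3 and KRT8 were named by smallest unadjusted p. OVGP1 and TPPP3 lay below every anestrus library in estrus and in pregnancy. In estrus these were 2 of 14 list genes, against 6.42% of all genes. The part of these other cells in the antibody result was not tested.

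**Figure D4:**
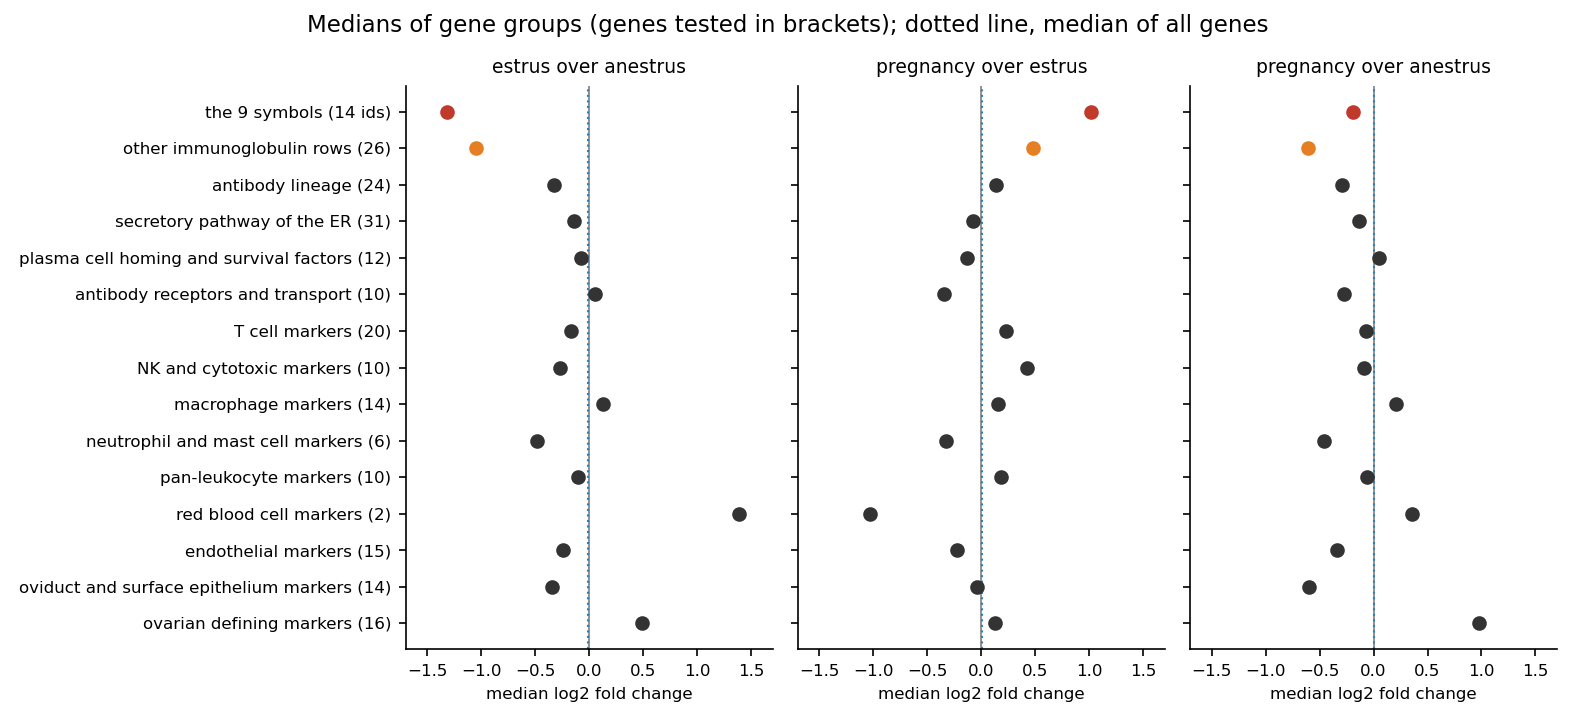
Median log2 fold change (axis in log2 units) of the 14 tested rows of the 9 symbols, of the 26 other immunoglobulin rows and of 13 lists of markers and pathways, in the 3 comparisons; the dotted line is the median of all genes. In estrus over anestrus, the contrast that chose the 14 rows, these and the other immunoglobulin rows lie at -1.32 and -1.05. The median of the other lineage genes is -0.33, that of neutrophil and mast cell markers -0.48 and that of oviduct and surface epithelium markers -0.34. T cell markers lie at -0.16 and macrophage markers at 0.13.

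The 14 rows did not all vary together. Each row was set against the mean centred log2 CPM of the other symbols over the 9 libraries, which share depth and scaling. Pearson's r is given as a description. The symbols were chosen for lower estrus than anestrus levels in these same libraries, so part of their likeness follows from that choice. The choice also enters the mean profile to which other genes are compared below. It was 0.89 for MZB1 and POU2AF1, 0.88 for IGLV2-14 (54090), 0.85 for IGHV4-39 (48048) and 0.81 for JCHAIN. CD79A reached 0.65, CD79B 0.24 and PRDM1 0.18, and IRF4 (31214) was at -0.28 against 0.82 for IRF4 (02929). Among 10943 other genes with a mean of at least 5 CPM, those most like the mean profile of the rows (n = 9 libraries) were SMIM15 (0.90), Igh-1a (0.90), 2 IGLL5 rows (0.90 each), IGHG2 (0.90 and 0.89), RPL9 (0.89), PCGF2 (0.89), PTK2B (0.89) and YPEL5 (0.89). The 2 IGLL5 rows hold the same counts in all 9 libraries and are 1 measurement. Igh-1a, described as a gamma heavy chain, had 1917, 1040 and 228 CPM in estrus against 4258, 1603 and 3883 CPM in anestrus libraries. RPL9, a ribosomal protein whose reads may be shared with near-identical copies, had 21.6, 43.9 and 8.77 CPM in estrus against 131, 139 and 76.9 CPM in anestrus libraries. Without estrus replicates 1 and 3, the libraries farthest from the median of the profile, r was 0.75 for SMIM15, 0.67 for RPL9 and 0.93 for PTK2B. The least alike genes were NUP37 (-0.89), OAS1 (-0.89), ATP6V0C (-0.87), EIF4G3 (-0.85) and FRAS1 (-0.85). OAS1, an interferon-induced enzyme, had 1.46, 4.27 and 5.64 CPM in anestrus, 8.92, 6.20 and 25.0 CPM in estrus, and 3.29, 8.33 and 3.58 CPM in pregnancy libraries.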

How the data were processed

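Per the labels' protocols, footprints were freed of ribosomal RNA by RNase H after binding DNA probes, and a HiSeq X10 read the libraries. Bowtie2 and RSEM are named in the submitters' processing notes, with no version or build given in the sources used here. The deposited tables hold the authors' expected counts and FPKM per gene and library. The authors' deposited comparison tables hold log2 fold changes with a p-value and an FDR, whose test no file header states. Where tables repeat a library, 0 of 389736 values differed.

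Expected counts were rounded and fitted with edgeR 4.0.16 (R 4.3.3; filterByExpr, TMM factors from 0.876 to 1.144, quasi-likelihood tests, Benjamini-Hochberg adjustment over all genes) on all 9 libraries with stage as the term. Of 21652 genes 13936 were tested, with 99.9% of the counts, at a biological coefficient of variation of 34.5%. Standard errors were worked back from that fit, as the absolute log2 fold change divided by the square root of its quasi-likelihood F. The steps were tested on simulated data. Alternatives were DESeq2 1.42.0, limma 3.58.1 (voom), other scalings and filters, a replicate block and leaving out libraries. The genes and lists were chosen with earlier results of these data known. Named are every identifier of the 9 symbols, the immunoglobulin rows with most counts, up to 4 genes per list by smallest p, and the 10 most and 5 least alike genes. By symbol, 6 of 9 are in the RefSeq gene table of yak. Same-numbered replicates had correlations of deviations from -0.029 to 0.261, so the numbers were not taken as pairs. A table of stage means for some genes was not used.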

Additional observations from a re-analysis of the deposited data

How the results depend on the processing

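In estrus against anestrus the count of negative rows was 11 to 13 over the 9 settings that leave out 1 library, and 13 or more under every other setting in which all 14 rows were fitted. The log2 ratio of summed immunoglobulin rows there kept its sign in all settings run, from -1.72 to -0.95 when 1 library was left out. The counts of called rows in the pregnancy comparisons were 0 in every alternative, except that for pregnancy against estrus DESeq2 and the authors' deposited table called 2 each. The lineage list had 0 calls under every alternative in all 3 comparisons. Directions of single rows in the pregnancy comparisons turned often, with none past the threshold: 9 of 14 rows never turned in pregnancy against estrus and 4 of 14 in pregnancy against anestrus. The cause of these turns was not tested.

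The turned log2 fold changes of pregnancy over estrus were these. With limma-voom IGHV4-39 (46161) was -0.49 and IRF4 (31214) 0.063. In the authors' deposited table PRDM1 was 0.076 and IRF4 (31214) 0.094, and by library size alone they were 0.035 and 0.039. With the replicate block CD79B was -0.030 and IRF4 (31214) 0.11. IGHV4-39 (46161) was -0.48 with library size as a covariate and -1.07 without both libraries that stood apart, a setting chosen after the data were seen. Leaving out 1 library at a time gave -1.08 to 2.64 for IGHV4-39 (46161), -0.059 to 0.86 for CD79A, -1.64 to 0.81 for CD79B, -0.26 to 0.16 for PRDM1 and -0.36 to 0.57 for IRF4 (31214).

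For pregnancy over anestrus, limma-voom gave -1.61 for IGHV4-39 (46161), -0.016 for IGHV4-39 (48268) and -0.039 for IRF4 (31214). The authors' deposited table gave 0.045 for IGHV4-39 (48048) and 0.025 for JCHAIN, and library size alone gave 0.028 for IGHV4-39 (48048). Library size as a covariate gave -1.62 for IGHV4-39 (46161), -0.072 for IGHV4-39 (48268), 0.23 for IGLV2-14 (54090), 0.30 for CD79B and -0.85 for IRF4 (31214). Without both libraries that stood apart the values were -1.92 for IGHV4-39 (46161), -0.32 for IGHV4-39 (48268), -0.11 for CD79A and -0.24 for IRF4 (31214). Leaving out 1 library at a time gave -1.60 to 1.04 for IGHV4-39 (46161), -0.36 to 0.16 for IGHV4-39 (48048), -0.086 to 0.50 for IGHV4-39 (48268), -0.64 to 0.0091 for IGHV4-39 (50088), -0.73 to 0.28 for IGLV2-14 (54090), -0.99 to 0.15 for JCHAIN, -0.14 to 0.52 for CD79A and -1.0 to 0.11 for IRF4 (02929).

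With the replicate block the median of the 14 rows was -1.21 in estrus over anestrus, 0.97 in pregnancy over estrus and -0.19 in pregnancy over anestrus, with 13, 2 and 10 rows negative and 0 called in the pregnancy comparisons. With library size as a covariate the medians, in the same order, were -1.64, 0.64 and -0.91, with 14, 3 and 11 rows negative. Counts of called genes over the whole table also depended on the tool: DESeq2 called 14, 30 and 26 genes in these 3 comparisons and edgeR 0 in each, and 31, 23 and 36 genes had an FDR under 0.05 in the authors' deposited tables. Only 10 rows passed the filter when the 6 libraries of pregnancy and estrus were fitted alone. The rows that dropped out were CD79B, POU2AF1, IGLV2-14 (49563) and IGHV4-39 (46161). Depth limits CD79B, POU2AF1, IGLV2-14 (49563) and IGHV4-39 (46161) most, since some of their libraries hold 0 to 5 counts.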
